A study of Mus musculus with 6 samples.

Results

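The genes described here encode the machinery of vesicle traffic: Rab and Arf GTPases, Vps proteins, sorting nexins, syntaxins, Vamp SNAREs, Sec proteins and subunits of the COPI coat. Members were chosen by symbol alone: every gene whose symbol begins with Rab, Arf, Vps, Snx, Stx, Vamp or Sec followed by a digit, or with Cop followed by a, b, e, g or z. The rule found 123 genes measured by 175 probes, out of 7605 named genes tested in the series. Of the 123, 122 are protein-coding and 1, Rab26os, is a long non-coding RNA that shares only the start of its name with the family. Each gene is represented by its brightest probe; 86 members have 1 probe and 37 have several.

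The study compared mouse embryonic fibroblasts, fibroblast-rich cultures raised from minced embryos, with and without cyclophilin D (CypD), a mitochondrial peptidyl-prolyl isomerase encoded by Ppif. Total RNA of 3 wild-type and 3 CypD-/- (knockout) preparations, each labelled A, B or C, was hybridised to Illumina bead arrays. All cells were of C57BL/6 background, came from embryos at day 13.5 of gestation, and were grown in the same serum-containing medium; no other allele or agent is given. The labels do not say how the allele was made, or whether a letter marks a separate embryo, litter or culture, so p-values reflect array-to-array spread only, and this spread may be technical.

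Vesicles bud from a donor membrane with the help of a coat, are handed to a target by a tether, and fuse with it through SNARE proteins. Rab and Arf GTPases switch between an active and an inactive form and mark which membrane a carrier belongs to. Coats divide the work: COPII leaves the endoplasmic reticulum, COPI returns to it and moves within the Golgi, and retromer, sorting nexins and ESCRT sort cargo at endosomes.

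Values below are normalized log2 intensities, given in the order of arrays A, B and C, and a difference is the knockout mean minus the wild-type mean on that scale, with the standard error (SE) from limma over 3 and 3 arrays. A gene is said to rise or fall where limma's two-sided p, adjusted by the Benjamini-Hochberg method over all 27168 probes tested, was under 0.05. Because array probes differ in brightness, the level of one gene is not compared with that of another.

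The arrays were alike in median deposited intensity, which lay between 223.4 and 251.3. Correlations of normalized values over probes were 0.9925 to 0.9945 within a group and 0.9845 to 0.9855 between groups. The arrays differed in their weight on the results. With all 6 arrays 43.6% of named genes rose or fell, without wild-type array C 46.9%, and without any other 1 array 34.1% to 37.1%. The targeted gene Ppif fell from 13.63 ± 0.07 to 12.26 ± 0.09 (SD, n = 3; difference -1.37, adjusted p = 2.96e-09), and where its probe lies relative to the deleted part is not given. For the marker counts that follow, 21.8% of all 7605 named genes rose and 21.8% fell. Of 14 fibroblast markers tested, 5 rose and 4 fell. The summed linear signal of these 14 was 57543 to 58700 on the wild-type arrays and 51327 to 59440 on the knockout arrays. Of 6 smooth muscle and myofibroblast markers, 5 fell, with a summed linear signal of 76983 to 85007 on the wild-type arrays and 64306 to 65776 on the knockout arrays. Of 5 neural and glial markers 3 fell (summed signal 11102 to 13343 against 8440 to 8731). Of 4 endothelial markers 2 rose (1934 to 2101 against 2432 to 2612), of 4 epithelial markers 1 rose and 1 fell (1618 to 1633 against 2007 to 2131), and of 2 skeletal muscle markers 1 fell (577 to 705 against 584 to 635). Neither of the 2 leukocyte markers and not the 1 erythroid marker passed. The part of these cell-type differences in the results below was not tested, and in bulk samples fewer cells of a type and less RNA per cell cannot be told apart.

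Vesicle traffic genes changed about as often as other genes, in both directions, and by small amounts. Of the 123 members, 29 rose, 26 fell and 68 did not pass, which is 44.7% called. Over all 7605 named genes the share called was 43.6%, with 21.8% rising and 21.8% falling. Gene names exist only for probes that the authors' processed table lists, and those probes had been selected for variation over these 6 arrays, so both shares are high by selection and the members' share lies near the background. The median difference of the members was 0.002, against 0.008 over all named genes, and the quartiles of the members were -0.22 and 0.248. Without knockout array C the number of members called was 35, of which 19 rose and 16 fell. The share of all named genes called without that array was also lower, at 34.1% (1267 rising and 1325 falling). Of the 26 falls, 8 were of genes on chromosomes 15 and 18, where most named genes were lower in the knockout, as described further on.

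Large changes were few. In all, 9 members (7.32%) changed by at least 1.5-fold with an adjusted p under 0.05, against 14.1% of all named genes, and 2 members (1.63%) changed by at least 2-fold, against 6.07%. The wild-type and knockout arrays did not overlap for 72 members (58.5%), against 56.1% of all named genes. The median fold among called members was 1.3, against 1.359 among all called genes. These shares are descriptions with no test of the difference from other genes.

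**Figure D1:**
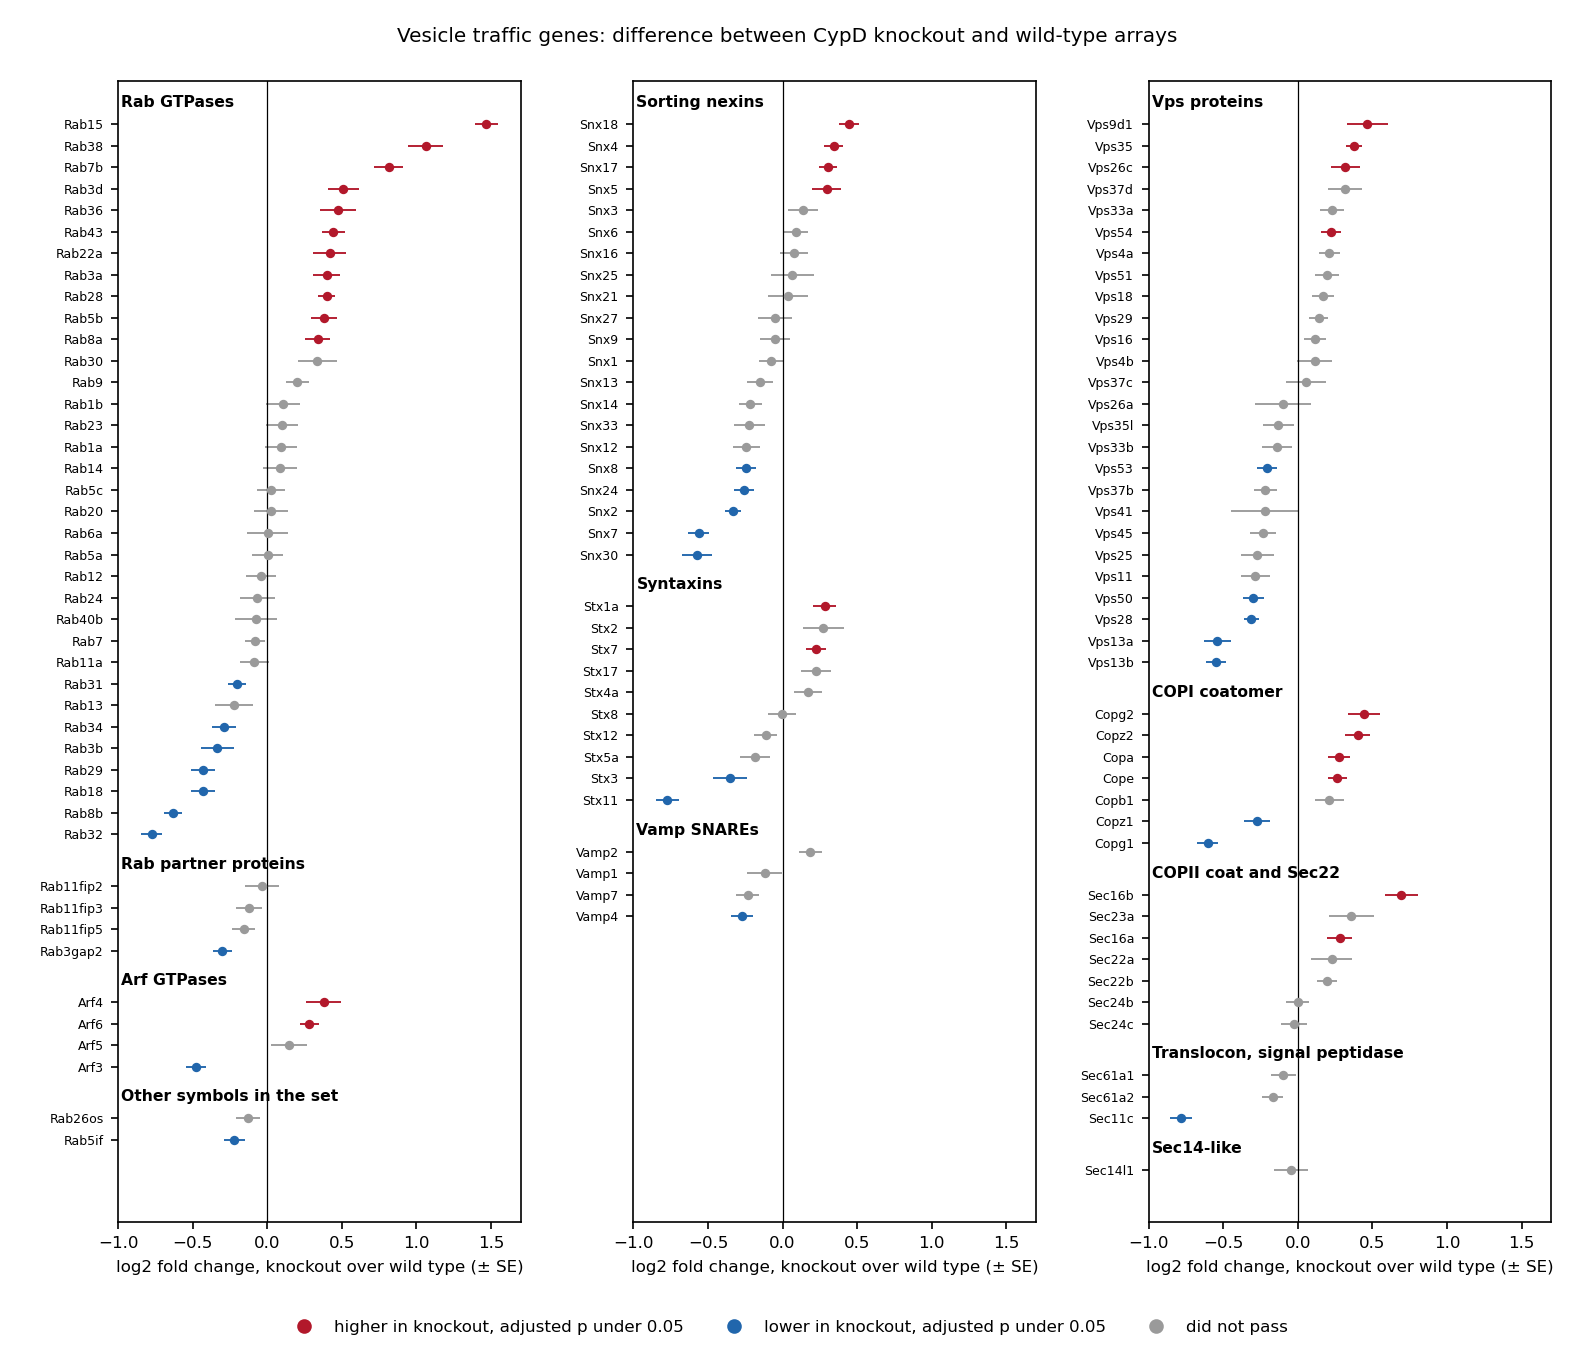
Difference between knockout and wild-type arrays (log2, point ± SE, 3 arrays per group) for all 123 vesicle traffic genes, arranged by role. Of these, 29 rose (red), 26 fell (blue) and 68 did not pass (grey); most points lie within 0.5 of 0, and Rab15 (1.47) and Rab38 (1.06) stand farthest to the right.

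Before the values, the promoters of 2 gene pairs are shown. In each pair closely related genes for the same kind of protein moved in opposite directions: Rab8a rose and Rab8b fell, and Copg2 rose and Copg1 fell. The windows run from 250 bases before to 50 bases after the annotated start and come from RefSeq on assembly GRCm38.p6. Rab8a is at chr8:72160950-72161249 (plus strand), Rab8b at chr9:66919656-66919955 (minus strand), Copg1 at chr6:87887690-87887989 (plus strand) and Copg2 at chr6:30896745-30897044 (minus strand). Capitals mark a CCAAT box (CCAAT) or a GC box (GGGCGG) found on either strand, so ATTGG and CCGCCC are the same motifs read on the other strand.
Rab8a: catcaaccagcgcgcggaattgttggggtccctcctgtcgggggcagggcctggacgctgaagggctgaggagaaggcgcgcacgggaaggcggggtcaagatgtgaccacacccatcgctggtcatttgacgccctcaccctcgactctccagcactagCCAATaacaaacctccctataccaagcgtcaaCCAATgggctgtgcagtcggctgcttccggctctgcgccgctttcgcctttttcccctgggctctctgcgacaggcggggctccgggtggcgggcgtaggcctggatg
Rab8b: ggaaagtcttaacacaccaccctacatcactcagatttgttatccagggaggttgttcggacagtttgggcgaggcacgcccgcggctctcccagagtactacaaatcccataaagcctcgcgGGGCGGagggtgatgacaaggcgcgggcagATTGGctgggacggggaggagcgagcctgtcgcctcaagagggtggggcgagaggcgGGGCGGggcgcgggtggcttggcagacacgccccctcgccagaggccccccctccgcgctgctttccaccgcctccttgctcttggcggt
Copg1: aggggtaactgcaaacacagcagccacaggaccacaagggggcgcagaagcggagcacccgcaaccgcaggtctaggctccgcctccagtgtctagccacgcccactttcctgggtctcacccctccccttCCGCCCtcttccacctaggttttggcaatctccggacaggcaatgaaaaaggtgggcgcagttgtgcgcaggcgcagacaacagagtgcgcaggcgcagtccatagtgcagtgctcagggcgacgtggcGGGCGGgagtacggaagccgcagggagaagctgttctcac
Copg2: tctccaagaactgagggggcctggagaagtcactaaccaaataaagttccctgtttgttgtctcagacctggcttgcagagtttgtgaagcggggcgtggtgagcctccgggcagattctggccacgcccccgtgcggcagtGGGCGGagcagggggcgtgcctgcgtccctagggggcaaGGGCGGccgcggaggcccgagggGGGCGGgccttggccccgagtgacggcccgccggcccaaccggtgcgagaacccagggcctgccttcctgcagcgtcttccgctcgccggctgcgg
The Rab8a window held 2 CCAAT boxes and 0 GC boxes, and the Rab8b window held 1 CCAAT box and 2 GC boxes. The Copg1 window held 2 GC boxes and the Copg2 window 3, both with 0 CCAAT boxes. RefSeq windows were matched for 99 of the 123 members (122 windows). A GC box was present in 73.0% of the member windows and in 46.2% of the windows of all protein-coding genes, and a CCAAT box in 36.1% and 38.2%. Among members that rose, 71.9% of windows held a GC box, among those that fell 65.2%, and among those that did not pass 76.1%. The E-box core CACGTG was in 12.3% of member windows and 7.84% of protein-coding windows. The element TGACGTGG, bound by factors of the unfolded protein response, was in 3.28% of member windows and 0.705% of protein-coding windows. The member windows that held it were those of 4 members, Copb1, Sec16b, Sec23a and Stx5a. Of these, Sec16b rose and Copb1, Sec23a and Stx5a did not pass. A match is a description of letters in this window, not a site in use.

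Rab GTPases were the most numerous role, and they held the largest changes in the set. Of 34 tested, 11 rose, 7 fell and 16 did not pass. Only here did members reach 2-fold.

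Rab15, which acts in endocytic recycling, rose most. It read 9.90, 9.77 and 9.86 on the wild-type arrays and 11.26, 11.33 and 11.34 on the knockout arrays. Every knockout array lay well above every wild-type array, and the difference was 1.47 ± 0.08 (2.77-fold, adjusted p = 6.38e-09). Rab3d, a GTPase of regulated secretion, read 7.97, 7.91 and 8.20 in wild type and 8.52, 8.60 and 8.48 in the knockout, a rise of 0.51 ± 0.10 (adjusted p = 0.00269) with no overlap between groups. Its relative Rab3a rose by 0.40 ± 0.09 (adjusted p = 0.0068), while Rab3b fell by 0.34 ± 0.11 (adjusted p = 0.0474). Rab3b rests on a thin margin: its call ended without wild-type array B or C or any 1 of the knockout arrays, with adjusted p between 0.0768 and 0.183.

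Rab8a and Rab8b both drive exocytic traffic and the building of cilia. Rab8b read 13.33, 13.45 and 13.44 in wild type and 12.81, 12.73 and 12.78 in the knockout, a fall of 0.64 ± 0.06 (adjusted p = 3.25e-06), and its second probe fell by 0.65. Rab8a read 12.84, 12.99 and 12.66 in wild type and 13.15, 13.28 and 13.08 in the knockout, a rise of 0.34 ± 0.08 (adjusted p = 0.0096). In neither gene did the groups overlap, and the directions were opposite. The rise of Rab8a missed the threshold without knockout array B (adjusted p = 0.0632). Among the other members of this recycling and exocytic group, Rab11a (difference -0.09), Rab13 (-0.22) and Rab14 (0.09) did not pass; Rab13 passed without wild-type array C (-0.35, adjusted p = 0.0334).

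At late endosomes and lysosome-related organelles, 2 Rabs rose and 2 fell out of 6. Rab32 and Rab38 are close relatives that deliver cargo to melanosomes and other lysosome-related organelles. Rab38 read 7.26, 7.48 and 7.71 in wild type and 8.56, 8.49 and 8.60 in the knockout, a rise of 1.06 ± 0.12 (2.09-fold, adjusted p = 1.49e-05), and its second probe rose by 0.63. Rab32 read 12.60, 12.51 and 12.51 in wild type and 11.77, 11.67 and 11.86 in the knockout, a fall of 0.77 ± 0.07 (1.71-fold, adjusted p = 2.09e-06). The relatives thus moved in opposite directions, each with a clear gap between the groups.

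Rab7b, which returns cargo from late endosomes to the trans-Golgi network, also rose. It read 7.83, 7.98 and 7.76 in wild type and 8.75, 8.66 and 8.60 in the knockout (difference 0.81 ± 0.10, adjusted p = 3.78e-05; second probe 0.53). Rab7, the main Rab of late endosomes and lysosomes, did not pass, with a difference of -0.08 ± 0.07 (adjusted p = 0.504) and overlapping groups. Rab29, a Golgi and lysosome Rab linked to the kinase LRRK2, read 10.19, 10.13 and 10.31 in wild type and 9.80, 9.73 and 9.81 in the knockout, a fall of 0.43 ± 0.08 (adjusted p = 0.0018). Rab9, of late endosome to Golgi transport, had a difference of 0.20 that did not pass (adjusted p = 0.0903); it passed without knockout array B (0.0473) and relative to its chromosome (0.30, 0.0148). The dimmer Rab9 probe had the opposite sign, at -0.18, with no overlap between groups, and did not pass (adjusted p = 0.29).

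**Figure D2:**
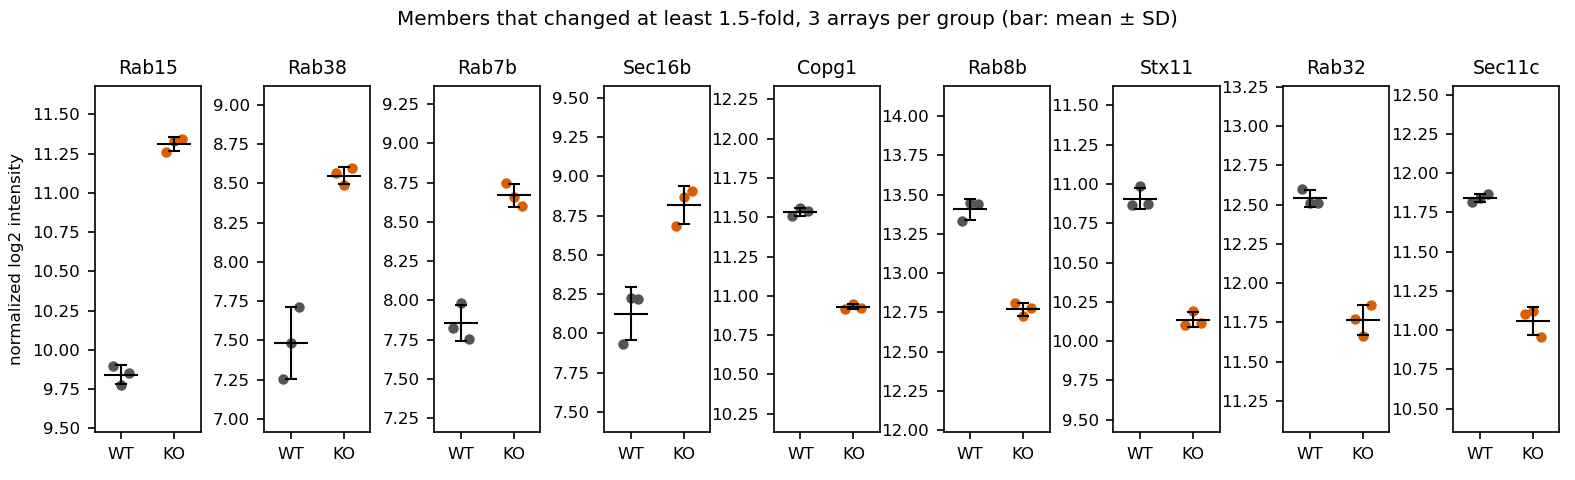
Normalized log2 intensity on each array for the 9 members that changed at least 1.5-fold (WT, wild type; KO, CypD knockout; points are arrays A, B and C, bars the mean ± SD; every panel spans the same range of log2 units, about its own centre). In all 9 genes the 3 knockout arrays lie wholly above or wholly below the 3 wild-type arrays.

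At early endosomes, Rab5 and its relatives prepare membranes for fusion. Rab5b rose by 0.38 ± 0.09 (9.23, 9.15 and 9.13 against 9.45, 9.66 and 9.54; adjusted p = 0.0072). Rab5a (0.00) and Rab5c (0.03 ± 0.09, adjusted p = 0.896) did not pass, and their groups overlapped. Rab22a and Rab31 are related early endosome and trans-Golgi Rabs. Rab22a read 9.76, 9.38 and 9.79 in wild type and 10.19, 9.97 and 10.03 in the knockout (difference 0.42 ± 0.11, adjusted p = 0.0152). Its second probe rose by 0.50 (adjusted p = 0.00438). Rab31 fell by 0.20 ± 0.06 (adjusted p = 0.0279). Both calls, each on the brightest probe, are near the threshold. Rab22a lost its call without wild-type array B or knockout array A (adjusted p 0.0623 and 0.0727). Rab31 lost its call without any 1 array other than wild-type B (adjusted p 0.069 to 0.0841).

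Of 6 Rabs of the endoplasmic reticulum and Golgi, 1 rose and 1 fell. Rab43, which acts at the Golgi, read 10.54, 10.51 and 10.53 in wild type and 10.86, 10.99 and 11.06 in the knockout (difference 0.44 ± 0.08, adjusted p = 0.000916); its second probe did not pass (0.26, adjusted p = 0.0851). Rab18, of the endoplasmic reticulum and lipid droplets, fell by 0.43 ± 0.08 (adjusted p = 0.00134) and lies on chromosome 18, described further on. Rab1a (0.09), Rab1b (0.10) and Rab6a (0.00), core GTPases of secretory traffic, did not pass, and their groups overlapped. Rab30 (0.34, adjusted p = 0.0996) passed only without knockout array B (0.47, adjusted p = 0.0247).

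Among the remaining Rabs, Rab28, a GTPase of cilia, read 13.97, 14.06 and 14.04 in wild type and 14.35, 14.52 and 14.40 in the knockout, a rise of 0.40 ± 0.06 (adjusted p = 0.00017). Rab36 rose by 0.47 ± 0.12 (adjusted p = 0.013), and Rab34, needed for cilium formation, fell by 0.29 ± 0.08 (adjusted p = 0.0192). Neither of the last calls held throughout: Rab36 lost it without wild-type array A or knockout array B or C (adjusted p 0.0535 to 0.0715), and Rab34 without wild-type array B or knockout array A or C (0.0508 to 0.0914). Rab12, Rab20, Rab23, Rab24 and Rab40b did not pass, with differences between -0.07 and 0.10.

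Of 4 proteins that act on or through Rabs, 1 passed. Rab3gap2, a subunit of the complex that inactivates Rab3 and activates Rab18, read 12.16, 12.17 and 12.22 in wild type and 11.85, 11.90 and 11.89 in the knockout, a fall of 0.30 ± 0.06 (adjusted p = 0.00357). The Rab11 effectors Rab11fip2 (-0.04), Rab11fip3 (-0.12, adjusted p = 0.405) and Rab11fip5 (-0.16, adjusted p = 0.202) did not pass on their brightest probes; the second Rab11fip5 probe fell by 0.25 (adjusted p = 0.0449). Rab5if, named for binding Rab5, fell by 0.22 ± 0.07 (adjusted p = 0.0483); this call was lost without any 1 array other than wild-type C, with adjusted p between 0.0617 and 0.196. The non-coding Rab26os did not pass (-0.13, adjusted p = 0.334).

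Arf GTPases recruit coats and adaptors, and of 4 tested 2 rose and 1 fell. Arf3, a Golgi Arf, read 11.90, 11.89 and 11.93 in wild type and 11.36, 11.47 and 11.47 in the knockout, a fall of 0.48 ± 0.07 (adjusted p = 0.000153) in a gene of chromosome 15. Arf6, which works at the plasma membrane and in recycling, read 12.05, 12.05 and 12.09 in wild type and 12.31, 12.42 and 12.31 in the knockout, a rise of 0.28 ± 0.06 (adjusted p = 0.00604). Both showed a gap between the groups. Arf4, also of the Golgi, rose by 0.38 ± 0.12 (7.97, 8.01 and 7.64 against 8.33, 8.27 and 8.15; adjusted p = 0.034), a call lost without wild-type array C or any 1 knockout array (adjusted p 0.0506 to 0.119). Arf5 did not pass (0.14 ± 0.12, adjusted p = 0.498).

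COPI is the coat of Golgi-to-endoplasmic reticulum carriers, built from single subunits and from alternative gamma and zeta subunits. Of 7 COPI genes 4 rose, 2 fell and 1 did not pass. Copg1, the usual gamma subunit, read 11.51, 11.56 and 11.54 in wild type and 10.92, 10.95 and 10.92 in the knockout, a fall of 0.61 ± 0.07 (1.52-fold, adjusted p = 1.66e-05). Its alternative Copg2 read 8.96, 8.57 and 8.66 in wild type and 9.17, 9.13 and 9.22 in the knockout, a rise of 0.45 ± 0.11 (adjusted p = 0.00883). The groups did not overlap for either subunit. Of the remaining Copg1 probes, 2 also fell (-0.47 and -0.42), and 1 did not pass (-0.07).

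The zeta subunits showed the same pattern of opposite calls. Copz2 read 10.27, 10.38 and 10.49 in wild type and 10.76, 10.72 and 10.86 in the knockout, a rise of 0.40 ± 0.08 (adjusted p = 0.00318), and of its dimmer probes 2 rose and 1 did not pass (0.31, adjusted p = 0.0666). Copz1 read 13.10, 13.22 and 13.44 against 13.09, 12.85 and 13.00, a fall of 0.27 ± 0.09 (adjusted p = 0.0404). Copz1 is the only member whose probes were called in both directions, since its dimmer probe rose by 0.45 (adjusted p = 0.0381), so its direction is uncertain, and it lies on chromosome 15. Its fall was also lost without wild-type array B or C or knockout array B or C (adjusted p 0.0689 to 0.189).

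Among COPI subunits with no alternative, Cope rose by 0.27 ± 0.06 (13.68, 13.81 and 13.67 against 13.90, 14.06 and 14.00; adjusted p = 0.00764), while its other probes, at 0.18 and 0.09, did not pass. Copa, the alpha subunit, rose by 0.27 ± 0.07 (adjusted p = 0.0163), a call lost without knockout array A or C (0.0568 and 0.0716). Copb1, the beta subunit, read 8.46, 8.47 and 8.35 in wild type and 8.58, 8.57 and 8.76 in the knockout; the groups did not overlap, and the difference of 0.21 ± 0.10 did not pass (adjusted p = 0.162).

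COPII carries newly made proteins out of the endoplasmic reticulum, and Sec16 proteins organise the sites where it forms. Of 7 COPII and Sec22 genes 2 rose and 0 fell by limma, with 4 at an unadjusted p under 0.05. Of all 7605 named genes, 4423 had an unadjusted p under 0.05 in the same fit. Sec16b read 7.93, 8.23 and 8.22 in wild type and 8.68, 8.87 and 8.90 in the knockout, a rise of 0.69 ± 0.11 (1.62-fold, adjusted p = 0.000382). Sec16a rose by 0.28 ± 0.08 (11.75, 11.48 and 11.72 against 12.00, 11.87 and 11.93; adjusted p = 0.0265), a call lost without wild-type array B or knockout array A or C (adjusted p 0.0737 to 0.118). The cargo-binding Sec24b (0.00, adjusted p = 0.99) and Sec24c (-0.03), the coat subunit Sec23a (0.36 ± 0.15, adjusted p = 0.122) and Sec22a (0.23) did not pass, and in all of them the groups overlapped; Sec23a passed without wild-type array B (adjusted p = 0.0382). The SNARE Sec22b read 12.41, 12.33 and 12.27 against 12.57, 12.55 and 12.46, a difference of 0.20 just outside the threshold (adjusted p = 0.0529), which passed without wild-type array A (adjusted p = 0.0496).

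At the entry to the secretory pathway, Sec11c, a catalytic subunit of the signal peptidase, had the lowest difference of all members, within 1 SE of those of Rab32 and Stx11; relative to its chromosome it was -0.42. It read 11.82, 11.84 and 11.87 in wild type and 11.10, 11.12 and 10.96 in the knockout, a fall of 0.78 ± 0.07 (1.72-fold, adjusted p = 2.28e-06); Sec11c lies on chromosome 18. The translocon pore genes Sec61a1 (-0.10, adjusted p = 0.506) and Sec61a2 (-0.17, adjusted p = 0.13) did not pass. Sec14l1, of the Sec14-like lipid-binding family, did not pass either (-0.05, adjusted p = 0.856).

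SNAREs are the proteins that zip membranes together. Of 10 syntaxins 2 rose and 2 fell. Stx11, known for the release of cytotoxic granules in lymphocytes, read 10.87, 10.99 and 10.87 in wild type and 10.10, 10.19 and 10.12 in the knockout, a fall of 0.77 ± 0.08 (1.71-fold, adjusted p = 5.28e-06). Stx3, a plasma membrane syntaxin, read 8.71, 8.52 and 8.37 against 8.24, 8.27 and 8.02 (difference -0.35 ± 0.11, adjusted p = 0.0422). Its call was lost without wild-type array A or B or any 1 knockout array, with adjusted p of 0.0641 to 0.19.

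The syntaxins that rose did so by little. Stx1a, best known from synapses, rose by 0.28 ± 0.08 (10.73, 10.61 and 10.64 against 10.85, 11.02 and 10.97; adjusted p = 0.0198), and Stx7, of late endosomes, by 0.22 ± 0.07 (12.39, 12.36 and 12.26 against 12.64, 12.50 and 12.56; adjusted p = 0.0285). Stx1a lost its call without wild-type array B or knockout array B or C (adjusted p 0.0695 to 0.095), and Stx7 without wild-type array B or C or knockout array A or C (0.0544 to 0.122). Of the others, Stx8 (0.00) and Stx12 (-0.11), both endosomal, and Stx5a (-0.19), of the Golgi, had overlapping groups and did not pass, nor did Stx2 (0.27), Stx4a (0.17) and Stx17 (0.22; adjusted p = 0.0438 without wild-type array C). The dimmer Stx8 probes did not pass either, at -0.15, -0.21 (adjusted p = 0.1065) and -0.31 (adjusted p = 0.0508). For the probes at -0.21 and -0.31 the groups did not overlap.

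Of 4 Vamp SNAREs only Vamp4 passed, which acts between endosomes and the trans-Golgi network. It read 11.74, 11.72 and 11.63 in wild type and 11.51, 11.36 and 11.39 in the knockout, a fall of 0.27 ± 0.07 (adjusted p = 0.0167). The call was lost without wild-type array A or B or knockout array B or C (adjusted p 0.0543 to 0.0796). Vamp7, of late endosomes and lysosomes, had a difference of -0.24 that missed the threshold (adjusted p = 0.0527) and passed without wild-type array C (adjusted p = 0.0107) or knockout array A (0.0255). Vamp1 (-0.12) and Vamp2 (0.19, adjusted p = 0.111) did not pass.

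Vps genes, first found through yeast vacuolar sorting mutants, build tethers, retromer and ESCRT. Of 26 tested 4 rose, 5 fell and 17 did not pass. Vps13a and Vps13b, the Vps13 genes tested, encode long lipid-transfer proteins at membrane contacts, and both fell. Vps13b read 11.49, 11.47 and 11.46 in wild type and 10.90, 10.91 and 10.96 in the knockout, a fall of 0.55 ± 0.07 (adjusted p = 4.35e-05). Vps13a read 9.95, 9.72 and 9.85 against 9.26, 9.40 and 9.25, a fall of 0.54 ± 0.09 (adjusted p = 0.000668), and of its dimmer probes 1 fell by 0.82 and 1 did not pass (-0.43). In both genes all knockout arrays lay below all wild-type arrays; Vps13b is on chromosome 15.

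Retromer retrieves cargo from endosomes, and 1 of its 3 core genes rose. Vps35, its scaffold, read 14.34, 14.32 and 14.28 in wild type and 14.76, 14.59 and 14.71 in the knockout, a rise of 0.38 ± 0.06 (adjusted p = 0.000216). Its partners Vps29 (0.14 ± 0.07, adjusted p = 0.179) and Vps26a (-0.10 ± 0.19) did not pass; Vps26a gave a fall without wild-type array C (-0.39, adjusted p = 0.02). In retriever, the related recycling complex, Vps26c rose by 0.32 ± 0.10 (adjusted p = 0.0342) and Vps35l did not pass (-0.13). Of the other two Vps26c probes, 1 rose by 0.44 (adjusted p = 0.0108) and 1 did not pass (0.18), and the second Vps35 probe did not pass (0.26, adjusted p = 0.0565). The Vps26c call was lost without wild-type array B or any 1 knockout array (adjusted p 0.0505 to 0.143).

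The GARP and EARP tethers share subunits and differ in one: Vps54 makes GARP, which receives endosomal carriers at the trans-Golgi network, and Vps50 makes EARP, which acts in recycling. Vps50 read 12.00, 12.09 and 12.00 in wild type and 11.83, 11.67 and 11.69 in the knockout, a fall of 0.30 ± 0.07 (adjusted p = 0.00772). Vps54 read 12.51, 12.61 and 12.60 against 12.73, 12.90 and 12.77, a rise of 0.22 ± 0.07 (adjusted p = 0.0287). The subunits specific to each complex thus moved oppositely, although the Vps54 call was lost without wild-type array A or knockout array B or C (adjusted p 0.0576 to 0.143). Of the shared subunits, Vps53 fell by 0.21 ± 0.07 (adjusted p = 0.0411; lost without wild-type array A or B or any 1 knockout array, 0.0596 to 0.169), and its 2 dimmer probes fell as well, by 0.34 (adjusted p = 0.00419) and 0.25 (0.0147). Vps51 did not pass (0.20; adjusted p = 0.0395 without knockout array A).

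The HOPS and CORVET tethers and their relatives join endosomes and lysosomes. Of their 6 genes, 0 passed by limma, with 3 at an unadjusted p under 0.05 (against 4423 of all 7605 named genes). The differences of the 6 genes ran from -0.29 for Vps11 to 0.23 for Vps33a. Vps11 missed the threshold narrowly (adjusted p = 0.0521) and passed without knockout array B (0.0335), Vps33a passed without wild-type array C (0.00416), and so did Vps41, downward (0.0299). Vps16 (0.12, adjusted p = 0.325), Vps18 (0.17) and Vps33b (-0.14) did not pass.

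ESCRT proteins bud vesicles into the lumen of endosomes. Of 7 ESCRT and Vps4 genes 1 passed: Vps28, of ESCRT-I, read 14.56, 14.56 and 14.58 in wild type and 14.20, 14.29 and 14.28 in the knockout, a fall of 0.31 ± 0.05 (adjusted p = 0.000487), and is on chromosome 15. The alternative Vps37 subunits of ESCRT-I, Vps37b (-0.22, adjusted p = 0.0721), Vps37c (0.05) and Vps37d (0.32, adjusted p = 0.0687), did not pass, and neither did Vps25 (-0.27), Vps4a (0.21, adjusted p = 0.054; second probe called at 0.23, 0.043) or Vps4b (0.11). Leaving out 1 array brought in Vps37b (without wild-type B, 0.0345), Vps37d (without wild-type C, 0.00922) and Vps25 (without wild-type A, 0.0378). Outside these complexes, Vps9d1, which carries a Rab-activating domain, rose by 0.46 ± 0.14 (adjusted p = 0.027; lost without wild-type array A or B or knockout array B or C, 0.0642 to 0.132), and Vps45 did not pass (-0.24).

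Sorting nexins bind endosomal lipids through a PX domain, and many bend membranes through a BAR domain. Of 21 tested 4 rose, 5 fell and 12 did not pass; of the 11 with a BAR domain 3 rose and 4 fell, and of the other ten 1 rose and 1 fell. Snx4 forms pairs with Snx7 or Snx30 in endosomal recycling and autophagy. Snx7 read 12.33, 12.47 and 12.43 in wild type and 11.94, 11.74 and 11.86 in the knockout, a fall of 0.56 ± 0.07 (adjusted p = 6.23e-05). Snx30 read 10.18, 10.03 and 10.25 against 9.75, 9.46 and 9.52, a fall of 0.57 ± 0.10 (adjusted p = 0.000727). Their common partner Snx4 moved the other way, reading 12.34, 12.42 and 12.44 in wild type and 12.77, 12.70 and 12.75 in the knockout, a rise of 0.34 ± 0.06 (adjusted p = 0.00114).

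Snx1 and Snx2 pair with Snx5 and Snx6 to carry cargo from endosomes to the Golgi. Snx2 read 13.73, 13.76 and 13.75 in wild type and 13.40, 13.40 and 13.45 in the knockout, a fall of 0.33 ± 0.05 (adjusted p = 0.000475); its 2 dimmer probes, each at -0.31, did not pass, and the gene is on chromosome 18. Snx5 rose by 0.30 ± 0.10 (adjusted p = 0.0473), a call lost without wild-type array B or C or any 1 knockout array (0.0576 to 0.188). The dimmer Snx5 probe rose by 0.34 (adjusted p = 0.0311). Snx1 (-0.08) and Snx6 (0.09 ± 0.08, adjusted p = 0.539) had overlapping groups and did not pass.

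Among the endocytic sorting nexins, Snx18 read 12.35, 12.43 and 12.47 in wild type and 12.78, 12.90 and 12.92 in the knockout, a rise of 0.45 ± 0.07 (adjusted p = 0.000212), while its relatives Snx9 (-0.05) and Snx33 (-0.22) did not pass. Snx17, the cargo adaptor of retriever, rose by 0.31 ± 0.06 (14.17, 14.11 and 14.17 against 14.34, 14.49 and 14.53; adjusted p = 0.00185), and its dimmer probe did not pass (0.17). Snx8 fell by 0.24 ± 0.07 (adjusted p = 0.0159) and Snx24, on chromosome 18, by 0.26 ± 0.07 (adjusted p = 0.0142). Snx8 lost its call without wild-type array B or knockout array A or C (0.0505 to 0.0765), and Snx24 without knockout array A or C (0.0512 and 0.0572). Snx14 (-0.22, adjusted p = 0.0635) passed without knockout array A (0.0386) and on its second probe (-0.22, 0.0493), and Snx12 (-0.24) without wild-type array C (0.0169). The rest, Snx3, Snx13, Snx16, Snx21, Snx25 and Snx27, lay between -0.15 and 0.14.

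Because several pairs above moved apart, close relatives among the members were put together in 27 families of 62 genes; the families were chosen after the values had been seen. In 7 families at least 1 gene rose and at least 1 fell: Rab3, Rab8, Rab32 with Rab38, Rab22a with Rab31, Arf3 to Arf6, Copg and Copz. The fall in Copz is that of Copz1, whose probes were called in both directions. Over all 7605 named genes 21.8% rose and 21.8% fell, so some families would split at those shares alone, and how many was not tested. In 3 families all genes tested moved one way: both Sec16 genes rose, and Vps13a with Vps13b, and Snx7 with Snx30, fell. In 6 families some genes passed in 1 direction, and in 11 none passed. Among the 7 split families, the calls on both sides held in every alternative setting run only for Rab32 (18 settings) and Rab38 (17 settings, since its probe was too dim for the stricter filter).

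**Figure D3:**
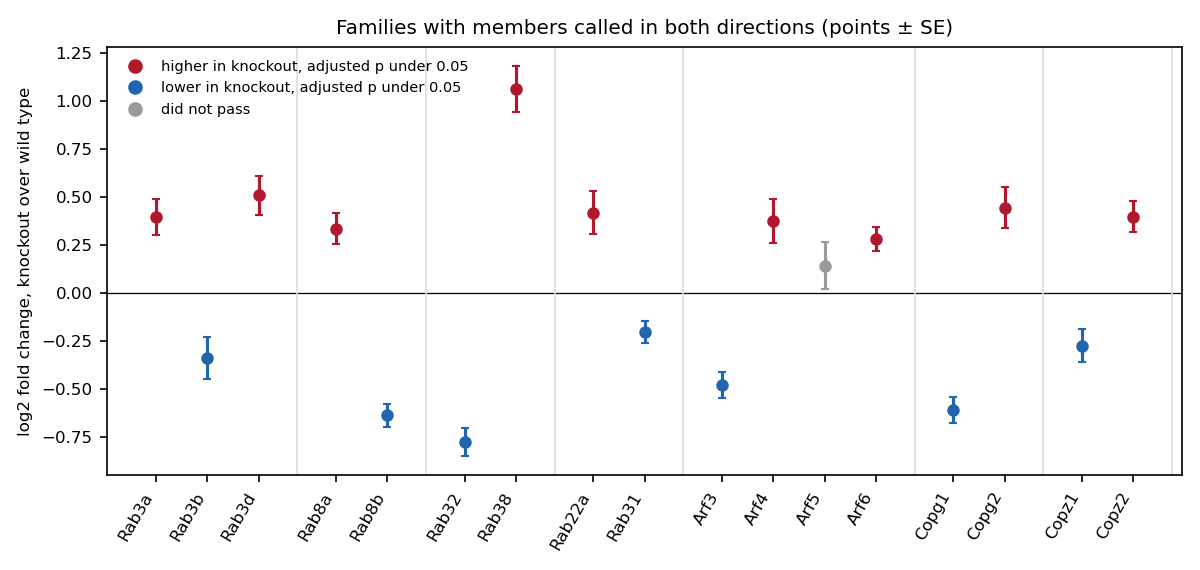
Difference between knockout and wild-type arrays (log2, point ± SE, 3 arrays per group) in the 7 families of related genes with calls in both directions, separated by vertical lines. The widest separation is between Rab32 (-0.77) and Rab38 (1.06), and Arf5 (grey) is the 1 gene shown that did not pass.

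Position in the genome moved with the calls. All 4 members on chromosome 15 (Arf3, Copz1, Vps13b and Vps28) and all 4 on chromosome 18 (Rab18, Sec11c, Snx2 and Snx24) fell. Most named genes of these chromosomes fell too: 58% on chromosome 15 and 64.8% on chromosome 18 were called downward. Leaving the members out, the median difference was -0.295 over 358 genes of chromosome 15 and -0.352 over 212 genes of chromosome 18, while medians on the other chromosomes lay between -0.149 and 0.169. Each knockout array showed the shift, at -0.321, -0.300 and -0.298 for chromosome 15 and -0.328, -0.355 and -0.348 for chromosome 18, relative to the wild-type mean.

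When each gene's difference was taken relative to its chromosome (an alternative chosen after seeing the data), 2 of the 8 genes kept their call with smaller values, Sec11c at -0.42 (adjusted p = 0.000745) and Vps13b at -0.24 (0.0288). On the same scale Rab32 was at -0.89 and Stx11 at -0.88, so Sec11c was no longer lowest. Arf3 moved to -0.16 (adjusted p = 0.125), Rab18 to -0.08 (0.627), Snx2 to 0.03 (0.813), Vps28 to 0.00 (0.984), Snx24 to 0.10 (0.396) and Copz1 to 0.04 (0.832). The sign turned in 4 of them: Snx2, Vps28, Snx24 and Copz1. In the same setting 18 members rose and 22 fell, since 22 calls were lost and 7 gained. The share of all named genes called in that setting was 36.5%, against 43.6% in the main fit.

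Of the 22 lost calls, 16 were of genes on other chromosomes. Those printed above with a rise were Arf6 (0.16, adjusted p = 0.137), Rab3a (0.28, 0.0594), Rab5b (0.27, 0.0567), Rab8a (0.21, 0.113), Rab36 (0.36, 0.0622), Copg2 (0.26, 0.126), Cope (0.14, 0.171), Sec16a (0.25, 0.051), Stx1a (0.17, 0.181), Stx7 (0.11, 0.329), Snx5 (0.27, 0.0831), Vps26c (0.21, 0.192) and Vps9d1 (0.34, 0.114). Those with a fall were Rab3b (-0.26, 0.157), Rab34 (-0.24, 0.0536) and Vps53 (-0.16, 0.177). The 7 genes that gained a call were Rab9 (0.30, 0.0148) and Stx17 (0.31, 0.0476), upward, and Rab7 (-0.26, 0.0138), Rab11fip5 (-0.34, 0.00634), Vps37b (-0.34, 0.0076), Sec61a1 (-0.28, 0.0278) and Snx13 (-0.28, 0.0366), downward. The cause of the shift of these chromosomes, and its part in each gene's change, was not tested. Among the 115 members elsewhere, 29 rose, 18 fell and 68 did not pass, which is 40.9% called, with a median difference of 0.037. All 7027 named genes outside chromosomes 15 and 18 were near this, with 1607 rising and 1309 falling (41.5% called) and a median of 0.042.

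**Figure D4:**
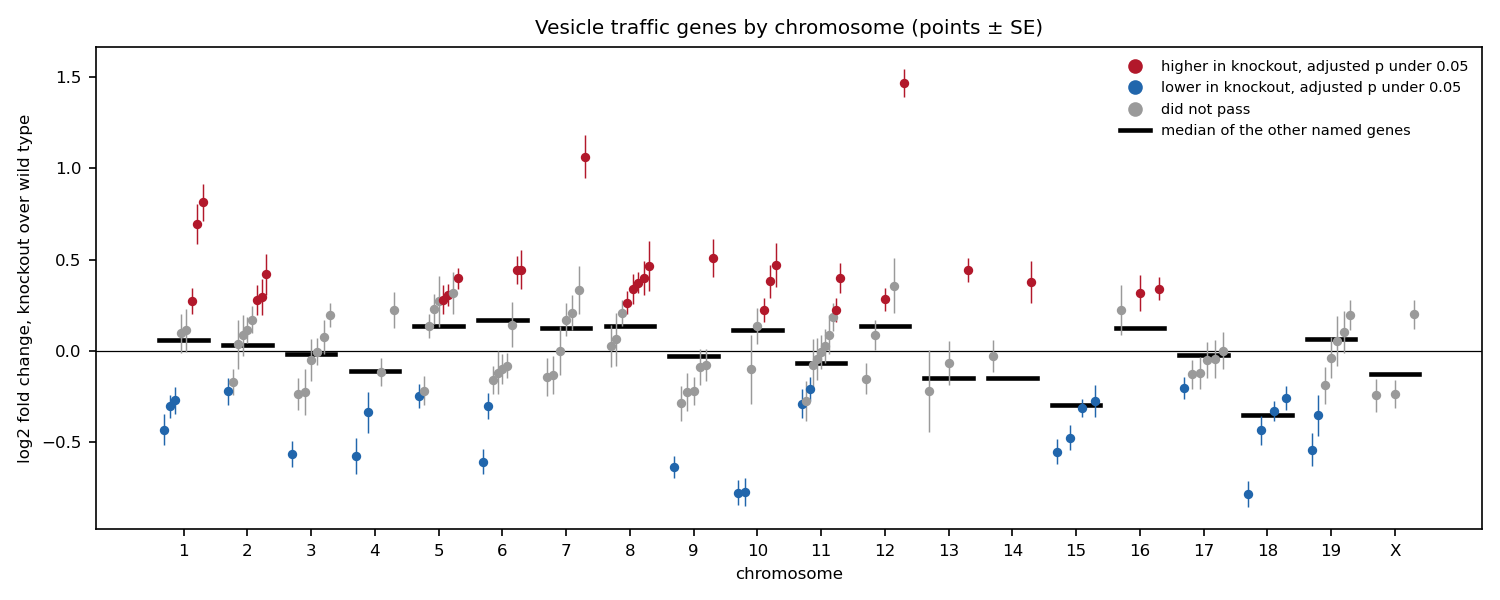
Difference between knockout and wild-type arrays (log2, point ± SE) for each member, grouped by chromosome, with the median of the other named genes of that chromosome as a black bar. The bars of chromosomes 15 (-0.295) and 18 (-0.352) lie lowest, and all 8 members on them fell.

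The other genes of the same pathways, from 6 lists of regulators, adaptors, tethers and cargo receptors, moved in both directions as well. Of 246 tested, 39 rose, 40 fell and 167 did not pass (32.1% called, against 43.6% of all named genes), with a median difference of -0.002. By list, 7 rose and 9 fell of 52 Rab regulators and effectors, 4 and 3 of 22 Arf regulators and Arl or Sar1 GTPases, 5 and 8 of 46 clathrin and endocytosis genes, 8 and 10 of 56 tethers, golgins and SNARE partners, 7 and 3 of 32 cargo receptors and coat accessories, and 8 and 7 of 38 genes of ESCRT, retromer partners and endosomal lipid kinases.

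The largest rise and fall of each list were as follows. Pik3r4, the regulatory subunit of the endosomal lipid kinase Vps34, rose by 1.89 ± 0.11 (3.71-fold, adjusted p = 1.31e-08), and the ESCRT-I subunit Mvb12b fell by 0.98 ± 0.10 (adjusted p = 4.17e-06). The Pik3r4 probe was dim in wild type, with a mean of 6.98, against 8.88 in the knockout. Among Rab regulators, Rin2, an activator of Rab5, fell by 1.01 ± 0.08 (2.01-fold, adjusted p = 3.92e-07) and the Rab-like Rabl2 rose by 0.61. The exocyst subunit Exoc2 fell by 0.69 and Stxbp4, a syntaxin-binding protein, rose by 0.49. Among clathrin, adaptor and endocytosis genes Pacsin2, a membrane-bending protein, fell by 0.68 and the clathrin adaptor Gga2 rose by 0.59. Pacsin2, and Rabl2, which rose, lie on chromosome 15. There the median difference of the named genes that are no member was -0.295, and its part in these changes was not tested. The Arf inactivator Smap2 fell by 0.54 and the Arf activator Arfgef2 rose by 0.44, while the cargo receptor Lman2 fell by 0.43 and Creb3l2, a transcription factor of secretory genes, rose by 0.45.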

How the data were processed

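Expression was measured on 6 single-colour Illumina bead arrays, 3 per group. The authors deposited linear probe intensities per array (45281 probes) made with BeadStudio 3.0, per the submitters' processing notes, and 1 table of processed intensities; other scan settings are not stated. Per the file headers the deposited tables hold identifiers and intensities only, without detection p-values, controls, slides or dates, and the number of arrays limits the precision. The processed table lists 12534 probes, each with a highest intensity at least 1.2 times its lowest and of at least 273.2; only these have gene names (10653 with 1 symbol, 5 with several, 1876 with none). Of these, 10643 matched RefSeq genes of GRCm38.p6, which gave chromosomes and promoters.

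Intensities were corrected with normexp (offset 50), taken to log2 and put on common quantiles (limma 3.58.1, R 4.3.3). Probes with a mean above the 40th percentile (27168) were fitted with lmFit and eBayes with an intensity trend; the offset compresses the folds of dim probes. Detailed members are those called at 1.5-fold or more, and, per role, up to 3 called of lowest p and up to 2 brightest that did not pass; per pathway list, the largest rise and fall. All other members are given as values, outside that rule. The members and lists were chosen with earlier results of these data known. Alternatives varied the background, scaling, filter, trend, array weights, replicate block, probe choice and chromosome centring, and left out each array.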

Additional observations from a re-analysis of the deposited data

How the results depend on the processing

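Of the 55 members called, 22 kept their call in each of the 18 alternative settings, 1 more (Rab38) in each of the 17 that could be run for it, and 23 of the 68 others passed in at least 1. Leaving out 1 array at a time gave from 35 members called (without knockout array C) to 57 (without wild-type array C). Of these, 19 to 29 were upward and 16 to 28 downward. The median difference of all members was -0.0139 to 0.055. The share of all named genes called was 34.1% without knockout array C and 46.9% without wild-type array C. Without the intensity trend 17 members fell and 16 calls were lost; median scaling and no filter on dim probes lost 5 each. The shares of all named genes called were 36.1% without the trend, 42.9% with median scaling and 40.7% without the filter. They were 36.5% with chromosome centring and 42.6% with a replicate block, against 43.6% in the main fit. Centring on chromosomes, chosen after seeing the data, left 18 rising, with 22 calls lost and 7 gained, and turned the sign of 4 called members, Snx2 (0.0287), Vps28 (0.0025), Snx24 (0.101) and Copz1 (0.041). Taking the probe of highest variance turned Copz1 (0.445). Median scaling moved the median to -0.0399. The causes of these moves were not tested. The replicate letters did not pair the arrays (correlation of deviations within a letter -0.09 to 0.101); with the letter as a replicate block 54 members were called, 28 upward and 26 downward, and 76 of the pathway genes. Genes without a listed probe have no value here, and dim probes, such as those of Rab38, Rab7b and Sec16b, have compressed folds.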
